A study of Mus musculus with 18 samples.

Results

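The expression of 10 genes of glucose use was followed through 2 RNA-seq tables of the series: the glucose transporter Slc2a1, the glycolytic enzymes Hk2, Pfkfb3, Pfkp, Aldoa, Gapdh, Pgk1, Eno1 and Ldha, and Hif1a, the oxygen-regulated subunit of the transcription factor HIF-1. The 10 genes were taken by symbol, with no threshold on any value but with earlier results of these data known. All 10 had a row in each table of 21441 genes. One table holds RAW264.7 cells, a mouse macrophage line, as controls, as cultures given lipopolysaccharide (LPS), and as cultures given LPS with 10 µM moringa isothiocyanate-1 (MIC-1), a plant isothiocyanate. The other holds livers of male wild type C57BL/6 mice given vehicle and saline, LPS at 10 mg/kg, or LPS after 3 days of gavage with MIC-1 at 80 mg/kg in DMSO, taken 16 h after the injection. Each group had 3 libraries (18 in all). The labels repeat the animal doses for the cell libraries, and the LPS concentration of the cultures is not given in the sources used here. No group received MIC-1 without LPS, so what MIC-1 does to these genes alone is outside the design.

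Glycolysis splits glucose into pyruvate in the cytosol and yields ATP without oxygen. Macrophages that sense LPS through TLR4 are known to take up more glucose and release lactate, and stabilised HIF-1α is known to raise transcription of the transporter and of most enzymes of the path. HIF-1α is controlled largely through the life of the protein, which RNA-seq does not see. A healthy hepatocyte mostly makes and exports glucose, and uses another transporter, GLUT2 (Slc2a2).

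In the mm9 annotation (GENCODE vM1) the genes lie apart from one another, at chr4:118781316-118809935 (Slc2a1, plus strand), chr6:82675019-82724448 (Hk2, minus), chr2:11393057-11423728 (Pfkfb3, minus), chr13:6579014-6648023 (Pfkp, minus), chr7:133938748-133944265 (Aldoa, minus), chr6:125111871-125116485 (Gapdh, minus), chrX:103382439-103399038 (Pgk1, plus), chr4:149610830-149622988 (Eno1, plus), chr7:54096845-54110997 (Ldha, plus) and chr12:75002362-75048517 (Hif1a, plus). The FPKM of a gene sums its RefSeq transcripts, so exons, not single sites, were measured.

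HIF-1 binds DNA at a short core written ACGTG or GCGTG, and the stretch just before the start site of 4 of the genes is shown because these promoters are classical examples of such letters and because the 4 genes did not behave alike in the libraries. The sequences come from RefSeq (GRCm38.p6), run 5′ to 3′ on the gene's strand from 150 to 11 bases before the start site, and carry ACGTG, read on either strand, in capitals.
Slc2a1 (chr4:119108595-119108734, plus strand): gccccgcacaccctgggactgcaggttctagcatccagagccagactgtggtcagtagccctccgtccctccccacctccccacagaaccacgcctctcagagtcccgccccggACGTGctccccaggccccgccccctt
Hk2 (chr6:82774465-82774604, minus strand): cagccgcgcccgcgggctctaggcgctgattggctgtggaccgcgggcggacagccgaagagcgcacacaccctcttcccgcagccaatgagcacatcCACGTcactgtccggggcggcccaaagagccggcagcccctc
Pgk1 (chrX:106186950-106187089, plus strand): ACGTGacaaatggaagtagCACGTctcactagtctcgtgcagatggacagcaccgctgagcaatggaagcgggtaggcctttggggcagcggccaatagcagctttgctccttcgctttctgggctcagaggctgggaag
Ldha (chr7:46845654-46845793, plus strand): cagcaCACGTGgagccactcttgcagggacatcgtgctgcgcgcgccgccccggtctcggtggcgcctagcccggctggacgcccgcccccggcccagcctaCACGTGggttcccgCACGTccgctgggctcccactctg

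In these stretches ACGTG occurred 1 time for Slc2a1, 1 time for Hk2, 2 times for Pgk1 and 5 times for Ldha, where the palindrome CACGTG counts once on each strand. Over the whole windows of 250 bases before to 50 after a start site, all 10 genes were matched, with 16 start sites in all. ACGTG stood in 10 of the 16 windows and in at least 1 window of 8 of the genes (all but Pfkp and Eno1), against 19.6% of the 32851 promoters in the reference. ACGTG or GCGTG stood in 15 of the 16 windows, against 43.8% of all promoters. The motif is short, several start sites of 1 gene overlap, and a match is a description of letters, not of binding.

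All values are FPKM (fragments per kilobase of transcript relative to library size, scaled by the authors within each table). A difference is given as Log2FC, the difference of group means of log2(FPKM + 0.5) with its SE, which understates the change of low genes. A gene was called at a limma adjusted p below 0.01 in macrophages or 0.05 in liver with an absolute Log2FC above 1. Genes with a mean FPKM above 1 were tested, 9905 in macrophages and 10147 in liver. The study states that the liver tissue came from 9 mice, 3 per group, while the origin of the culture replicates is not stated. No column is tied to an animal or a culture, so the p-values measure only the spread between these libraries. In bulk RNA, fewer cells of a type and less RNA per cell cannot be told apart.

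A pair of features of the libraries touch every result. Macrophage LPS library 2 lay with the controls: its Pearson r across tested genes was 0.980 to 0.990 with the controls but 0.862 and 0.860 with LPS libraries 1 and 3, and the summed FPKM of 10 LPS-induced genes was 703 in it against 30010 and 30850 in the other 2 and 334 to 710 in controls. Each macrophage result is therefore given over 9 libraries and without LPS library 2. The study analysed 8 macrophage libraries, 2 of them LPS, and does not say which LPS library it left out. In liver, LPS library 2 and LPS+MIC-1 library 2 stood apart from the other 2 of their groups (r of 0.889 to 0.893 and 0.932 to 0.935, against 0.979 between libraries 1 and 3 of each group). Estimated depth was 19.1 to 24.8 M reads in macrophages. In liver it was 4.90 to 11.2 M in controls, 13.03 to 19.7 M with LPS and 15.3 to 20.1 M with LPS+MIC-1, so depth ran with treatment there. Macrophage markers (11 genes) summed to 11060 to 13530 FPKM in the macrophage libraries and hepatocyte markers (10 genes) to 43030 to 83540 FPKM in liver, so the tissues matched their labels by these lists. In the macrophage table the 9 neutrophil markers summed to 2.52 to 3.67 FPKM in controls, 33.5, 5.08 and 43.7 with LPS and 690 to 756 with LPS+MIC-1, nearly all of it S100a8, while the defining Elane and Mpo were at most 0.132 FPKM in all 9 libraries. The part of S100a8 in the macrophage results was not tested.

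In macrophages, LPS libraries 1 and 3 held several-fold more Slc2a1 and Pfkfb3 mRNA and less Hk2 than the controls, and LPS+MIC-1 held little Pfkfb3 beside them while Hk2 went above control. Over all 9 libraries 0 of the 10 genes were called between LPS and control, beside 0.0% of all genes tested, with a smallest adjusted p of 0.0777 among all genes. With array weights 4 were called, beside 36.2%. By an unadjusted limma p of 0.05 with the same fold 2 of the 10 genes passed, where 4928 of the 9905 genes tested had such a p at any fold. Without LPS library 2, 4 of 10 were called (Slc2a1, Pfkfb3 and Aldoa higher, Hk2 lower), beside 34.2% of all genes. By adjusted p alone the count was 8 of 10, beside 64.0%. These shares lie close to those of all genes. The median Log2FC of the 10 was 0.58 without LPS library 2 and 0.25 over 9 libraries, beside -0.02 and -0.03 for all genes tested.

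Slc2a1 encodes GLUT1, the transporter that brings glucose into most cells. Its FPKM was 76.3, 83.1 and 75.9 in the 3 control libraries, 371, 83.1 and 381 after LPS, and 302, 254 and 308 after LPS+MIC-1. LPS library 2 lay at the level of control library 2, while the other LPS libraries and all LPS+MIC-1 libraries stood above every control. It rose 4.79-fold with LPS without LPS library 2 (Log2FC 2.25, SE 0.09, limma adjusted p = 1.38e-06). Over 9 libraries the Log2FC was 1.53 (SE 0.52, limma adjusted p = 0.0777). Between LPS+MIC-1 and control it rose by a Log2FC of 1.87 (limma adjusted p = 4.27e-06 without LPS library 2, 0.0345 over 9 libraries, where it was not called). The Log2FC between LPS+MIC-1 and LPS was -0.39 without LPS library 2 and 0.34 with it, and neither was called.

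Hk2 encodes the inducible hexokinase that traps glucose in the cell as its phosphate. It went the other way. Control libraries held 18.2, 17.3 and 18.0 FPKM, LPS libraries 7.35, 15.2 and 8.03, and LPS+MIC-1 libraries 25.5, 24.1 and 25.5. The 3 groups did not overlap, LPS library 2 included, with LPS lowest and LPS+MIC-1 highest. Without LPS library 2 it fell by 1.17 on the log2 scale with LPS (SE 0.07, limma adjusted p = 4.91e-06). It rose between LPS+MIC-1 and LPS by 1.33 over 9 libraries (SE 0.24, limma adjusted p = 0.00896) and by 1.64 without LPS library 2 (limma adjusted p = 3e-06). It was the only one of the 10 called between LPS+MIC-1 and LPS over 9 libraries, beside 3.87% of all genes tested, and that call was lost without control library 1.

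Pfkfb3 makes fructose-2,6-bisphosphate, the strongest activator of phosphofructokinase, and so sets the pace of the path. Its FPKM was 4.55, 5.63 and 4.91 in controls, 53.1, 5.42 and 54.3 after LPS, and 15.4, 7.12 and 14.5 after LPS+MIC-1. Here LPS+MIC-1 library 2 lay nearer the controls than its 2 partners did. Without LPS library 2 it rose 10.7-fold with LPS (Log2FC 3.30, SE 0.29, limma adjusted p = 2.77e-05) and fell by 2.15 on the log2 scale between LPS+MIC-1 and LPS (SE 0.29, limma adjusted p = 0.000376). Over 9 libraries these were 2.23 and -1.09, not called (limma adjusted p = 0.0777 and 0.341). The 2 contrasts share the LPS libraries, so a high LPS value enters both.

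Pfkp, the platelet-type subunit of phosphofructokinase, held 48.2, 51.02 and 47.8 FPKM in controls, 42.1, 51.9 and 41.1 after LPS, and 67.6, 65.4 and 66.3 after LPS+MIC-1. All LPS+MIC-1 libraries stood above all others. The Log2FC between LPS+MIC-1 and LPS was 0.56 over 9 libraries (SE 0.11, limma adjusted p = 0.0135) and 0.67 without LPS library 2 (limma adjusted p = 4.03e-05), under the fold threshold in both.

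**Figure D1:**
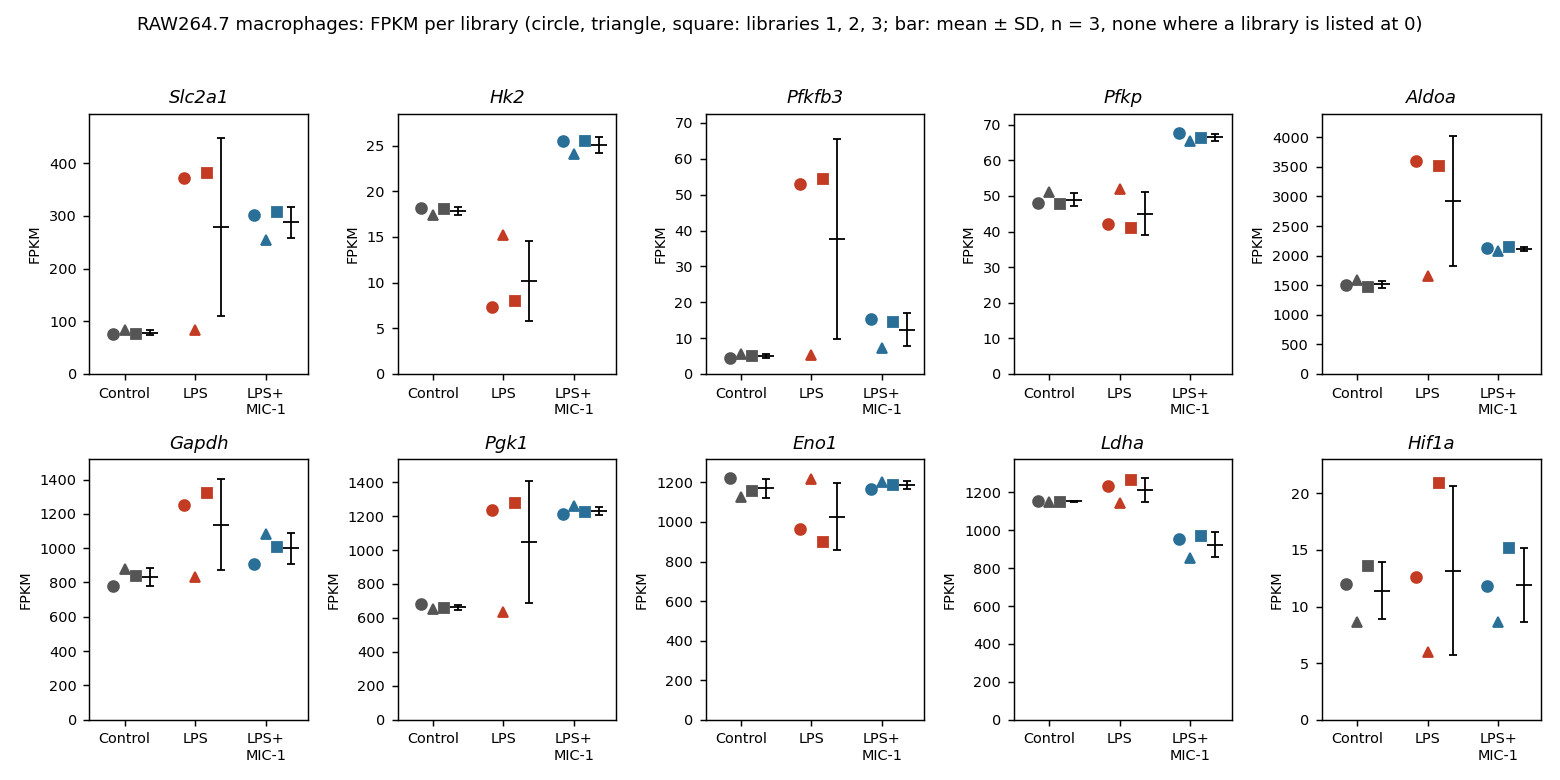
FPKM (linear axis from 0) of each of the 10 genes in the 9 macrophage libraries by group, with library 1 as a circle, 2 as a triangle and 3 as a square, and black bars for mean ± SD (n = 3). The LPS triangle lies within or close to the controls in every panel but Hk2 and Hif1a, where it is lower, and the remaining LPS points reach 371 and 381 FPKM for Slc2a1 and 53.1 and 54.3 for Pfkfb3.

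The enzymes of the later steps were already among the most abundant mRNAs. Aldoa, Gapdh, Pgk1, Eno1 and Ldha stood at or above percentile 98.1 of the genes tested in each of the 9 libraries. Aldoa, the aldolase that splits fructose bisphosphate, had 1501, 1583 and 1467 FPKM in controls, 3604, 1662 and 3516 after LPS, and 2134, 2080.4 and 2143 after LPS+MIC-1. It rose 2.35-fold with LPS without LPS library 2 (Log2FC 1.23, SE 0.06, limma adjusted p = 2.34e-06), and the Log2FC between LPS+MIC-1 and LPS was -0.75 (limma adjusted p = 2.83e-05), short of the fold threshold. LPS+MIC-1 libraries stood between the controls and LPS libraries 1 and 3.

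Gapdh, which makes NADH from glyceraldehyde phosphate and served the study as its PCR reference gene, had 777, 877 and 840.4 FPKM in controls, 1253, 834 and 1322 after LPS, and 906, 1083 and 1006 after LPS+MIC-1. Pgk1, the first enzyme of the path to yield ATP, had 680.0, 651 and 657 FPKM in controls, 1233, 632 and 1279 after LPS, and 1210.1, 1257 and 1221 after LPS+MIC-1. Both passed the adjusted p but not the fold threshold between LPS and control without LPS library 2, at Log2FC 0.63 for Gapdh and 0.92 for Pgk1. The LPS+MIC-1 libraries of Pgk1 lay at the level of LPS libraries 1 and 3 (Log2FC -0.03, SE 0.06, limma adjusted p = 0.644), and those of Gapdh lay below them (Log2FC -0.37, limma adjusted p = 0.00792).

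Eno1, the main enolase, had 1224, 1129 and 1158 FPKM in controls, 966, 1217 and 899.5 after LPS, and 1167, 1204 and 1188 after LPS+MIC-1. Its value is uncertain because Gm5506, a near-identical intronless copy, held 599 to 843 FPKM in the same libraries and could take its reads. With both rows summed, the Log2FC between LPS and control was -0.37 without LPS library 2 (limma adjusted p = 0.000886), against -0.33 for Eno1 alone. Ldha, which turns pyruvate into lactate, had 1155, 1151 and 1151 FPKM in controls, 1231, 1142 and 1264 after LPS, and 955, 851 and 967 after LPS+MIC-1. All 3 LPS+MIC-1 libraries were below every other library. Its Log2FC without LPS library 2 was 0.11 between LPS and control (limma adjusted p = 0.174) and -0.43 between LPS+MIC-1 and LPS (limma adjusted p = 0.000977).

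Hif1a mRNA was low beside the enzymes of the later steps and spread widely within groups. It stood above Pfkfb3 in every control library and above Hk2 in LPS libraries 1 and 3. It had 12.0, 8.63 and 13.6 FPKM in controls, 12.6, 5.96 and 20.9 after LPS, and 11.8, 8.66 and 15.2 after LPS+MIC-1. The 3 groups overlapped. Its Log2FC without LPS library 2 was 0.52 between LPS and control (SE 0.30, limma adjusted p = 0.144) and -0.47 between LPS+MIC-1 and LPS (SE 0.30, limma adjusted p = 0.19). Over the 9 libraries the 3 tested genes whose log2 values followed Hif1a most closely were AI597468, Dcp1a and Pvrl3 (Pearson r of 0.923, 0.918 and 0.915). These were picked as the highest of all genes, so the r values describe the libraries and carry no test.

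With LPS library 2 left out, 2 of 10 genes were called between LPS+MIC-1 and LPS (Hk2 higher, Pfkfb3 lower), beside 23.3% of all genes, and the median Log2FC of the 10 was -0.38 beside 0.01 for all. Between LPS+MIC-1 and control 0 of 10 were called over 9 libraries (beside 5.59%) and 2 of 10 without LPS library 2 (Slc2a1 and Pfkfb3, both higher, beside 15.7% called and 7.55% called higher). With LPS+MIC-1, 7 of 10 genes had all 3 libraries above all 3 controls and Ldha had all 3 below, where 66.4% of all genes tested had groups that did not overlap and 31.4% had LPS+MIC-1 wholly above control.

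The direction of the mild changes depended on how the libraries were scaled. LPS libraries 1 and 3 had FPKM sums of 1137533 and 1132904, against 557136 to 652486 in the other 7, with the ferritin gene Fth1 alone at 89994 and 79755. When each library was given the same FPKM sum, the median Log2FC of all genes between LPS and control moved from -0.02 to -0.93 without LPS library 2. On that scale 5 of the 10 genes were called, beside 51.1% of all genes: Slc2a1 (1.26) and Pfkfb3 (2.34) higher, and Hk2 (-2.10), Eno1 (-1.32) and Pfkp (-1.21) lower. Aldoa was at 0.24, and Gapdh (-0.36), Pgk1 (-0.07), Ldha (-0.88) and Hif1a (-0.43) changed sign. The summed FPKM of the 9 genes other than Hif1a shows the same: it was 5420.5 to 5547 in controls, 8760.1 and 8764 in LPS libraries 1 and 3 and 6783 to 6939 with LPS+MIC-1, but as a share of the library's FPKM it was 0.936% to 0.974%, then 0.770% and 0.774%, then 1.04% to 1.07%. Relative to the median of all genes, the 10 genes lay 0.60 higher on the deposited scale and 0.53 higher at equal sums.

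**Figure D2:**
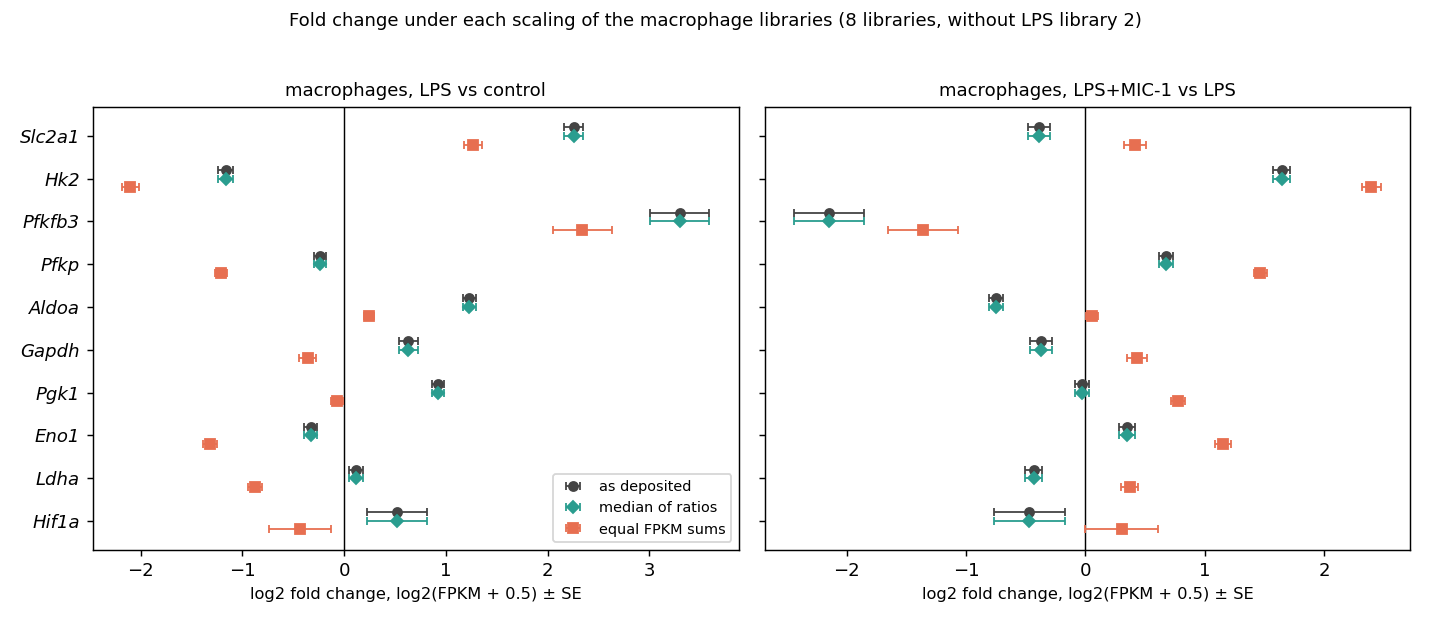
Log2FC ± SE (limma) of the 10 genes between LPS and control (left) and LPS+MIC-1 and LPS (right) in the 8 macrophage libraries without LPS library 2, as deposited (circles), under median-of-ratios scaling (diamonds) and at equal FPKM sums (squares). Circles and diamonds coincide, while equal sums move every gene to the left between LPS and control, so that Gapdh goes from 0.63 to -0.36, and to the right between LPS+MIC-1 and LPS.

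Shares within an isozyme family do not depend on that scaling. Among the hexokinases, Hk2 made up 19.0% ± 2.1 (SD, n = 3) of the summed FPKM of Hk1, Hk2 and Hk3 in control macrophages, 5.21% and 5.68% in LPS libraries 1 and 3 (15.2% in library 2) and 13.3%, 11.7% and 12.8% with LPS+MIC-1. Hk1, the housekeeping form, took 70.8% and 66.8% in LPS libraries 1 and 3, and Hk3, a myeloid form, took 45.1% ± 2.7 (SD, n = 3) with LPS+MIC-1 against 30.4% ± 0.7 (SD, n = 3) in controls. Hence Hk2 was above control in level with LPS+MIC-1 but below control as a share, since Hk1 and Hk3 were higher too.

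Pfkfb3 made up 37.7% ± 4.0 (SD, n = 3) of the 4 Pfkfb genes in control macrophages, 94.1% and 96.1% in LPS libraries 1 and 3, 35.3% in LPS library 2, and 65.6%, 44.4% and 66.4% with LPS+MIC-1. Pfkfb4 made up 37.0% ± 3.5 (SD, n = 3) in controls and 1.91% and 0.0% in LPS libraries 1 and 3. Pfkp made up 46.4% ± 1.7 (SD, n = 3) of the phosphofructokinase genes in controls, 67.3% and 66.4% in LPS libraries 1 and 3, and 54.7%, 57.9% and 55.5% with LPS+MIC-1. That share was above control while the level of Pfkp was below it, because Pfkl, the liver-type subunit, went from 50.1 to 54.0 FPKM in controls to 15.03 and 15.6. Of the 4 transporter genes summed (Slc2a1, Slc2a2, Slc2a3 and Slc2a6), Slc2a1 made up 48.2% ± 0.8 (SD, n = 3) in controls and 88.7% and 89.8% in LPS libraries 1 and 3. Slc2a6, a relative in the same family, was the other main form.

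In liver the picture was simpler. LPS livers held more mRNA of all 10 genes in at least 2 of 3 libraries, Ldha most, and no gene was called between LPS+MIC-1 and LPS. Of the 9 genes tested, 6 were called between LPS and control (Slc2a1, Pfkfb3, Pfkp, Aldoa, Pgk1 and Ldha), all higher, beside 24.6% of all genes called in either direction and 13.4% called higher. Among them, Pfkp passed the test's minimum mainly through the LPS group. The median Log2FC of the 9 was 1.76, beside 0.15 for all genes tested. At equal FPKM sums 2 of the 9 were called, beside 26.1%. Without library 2 of LPS and of LPS+MIC-1 all 9 were, beside 34.9%. The count was 3 without control library 2, LPS library 1 or LPS library 3, settings for which no share of all genes is given.

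Ldha had 159, 122 and 36.5 FPKM in control livers, 2020.4, 317 and 2302 after LPS, and 1224, 941 and 1293 after LPS+MIC-1. Every treated liver stood above every control, and LPS library 2 was the lowest of the treated. It rose with LPS (Log2FC 3.67, SE 0.79, limma adjusted p = 0.0112) and with LPS+MIC-1 against control (Log2FC 3.67, limma adjusted p = 0.00975). Without control library 3, the lowest, the Log2FC with LPS was 3.03 (limma adjusted p = 0.0383). Pgk1 had 48.5, 42.2 and 31.5 FPKM in controls, 284, 93.1 and 355 after LPS, and 204, 179.7 and 205 after LPS+MIC-1. The order of the libraries was that of Ldha, and it too rose in both treated groups, by a Log2FC of 2.38 (limma adjusted p = 0.00712) and 2.27 (limma adjusted p = 0.00733).

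Aldoa had 132, 139 and 128 FPKM in control livers, 359, 244 and 379.8 after LPS, and 236, 316 and 227 after LPS+MIC-1. Here LPS+MIC-1 library 2 was the highest of its group and LPS library 2 the lowest of its own, so the 2 treated groups overlapped. It rose with LPS (Log2FC 1.27, SE 0.23, limma adjusted p = 0.006). Slc2a1 had 6.33, 5.01 and 5.68 FPKM in controls, 13.3, 9.96 and 13.1 after LPS, and 11.002, 7.83 and 10.1 after LPS+MIC-1. It rose with LPS at a Log2FC of 1.03 (SE 0.20, limma adjusted p = 0.00732), just past the fold threshold, and was at 0.71 with LPS+MIC-1 against control (limma adjusted p = 0.0235), short of it.

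Pfkfb3 had 2.24, 2.10 and 1.44 FPKM in control livers, 13.5, 2.19 and 13.7 after LPS, and 4.49, 5.11 and 4.92 after LPS+MIC-1. LPS library 2 was within the controls, the LPS+MIC-1 libraries lay close together, and LPS libraries 1 and 3 stood far above both. The Log2FC with LPS was 1.76 (SE 0.57, limma adjusted p = 0.044). It was -0.61 between LPS+MIC-1 and LPS (limma adjusted p = 0.997) over 9 libraries and -1.44 (limma adjusted p = 0.0255) without library 2 of both groups, where it was the only one of the 9 genes called. Pfkp was low, at 0.881, 0.997 and 0 FPKM in controls, 2.62, 1.32 and 2.601 after LPS, and 1.000, 1.26 and 0.792 after LPS+MIC-1. It was called higher with LPS (Log2FC 1.36, limma adjusted p = 0.0461), with 1 control library at 0. Its mean over the 9 livers was 1.27 FPKM, with group means of 0.626, 2.18 and 1.02. It therefore passed the test's minimum mainly through the LPS group.

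Gapdh and Eno1 were not called with LPS over all 9 livers. Gapdh had 430.2, 68.1 and 27.7 FPKM in the 3 control livers, a 15.6-fold span, 1001, 158 and 914 after LPS, and 520.3, 169 and 521 after LPS+MIC-1. The groups overlapped, and the Log2FC of 2.48 with LPS had an SE of 1.07 (limma adjusted p = 0.0984). Eno1 had 275, 150.3 and 127 FPKM in controls, 398, 231 and 427 after LPS, and 327, 271 and 333 after LPS+MIC-1, at a Log2FC of 0.96 with LPS (limma adjusted p = 0.0561). Its copy Gm5506 was at 1.87 to 17.8 FPKM there. Without control library 1, the highest control for both genes, both were called higher with LPS (Log2FC 3.58 for Gapdh and 1.29 for Eno1, limma adjusted p = 0.0206 and 0.0134). Control library 3, the lowest for both, was also low for Hnf4a, a hepatocyte transcription factor, at 3.53 FPKM against 52.9 and 56.6 in the other 2 controls. Fgb, the fibrinogen beta chain, was low there too, at 556 FPKM against 1825 and 1504. The 10 hepatocyte markers together were not, with a sum of 43700 FPKM there against 83540 and 43030. What sets that library apart was not tested.

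Hk2 was under the test's minimum in liver, with 0.290, 0.393 and 0.192 FPKM in controls, 1.48, 1.10 and 0.897 after LPS, and 0.580, 1.08 and 0.585 after LPS+MIC-1. All LPS livers were above all controls, on an estimated 5.8 to 15.3 reads per control library and 65.5 to 128.7 per LPS library. Hif1a was listed at 0.549, 0.989 and 0 FPKM in controls, at 9.74, 0 and 6.11 after LPS, and at 2.56, 2.01 and 2.37 after LPS+MIC-1. It was high in LPS libraries 1 and 3, listed at 0 in LPS library 2, and tight in LPS+MIC-1. LPS libraries 1 and 3 held an estimated 726.4 and 426.9 reads of the gene, and control libraries 1 and 2 held 24.8 and 24.9. Whether a value of exactly 0 is a failed estimate was not tested. Its Log2FC with LPS was 1.81 (SE 1.00, limma adjusted p = 0.181), and 3.16 without LPS library 2 (limma adjusted p = 0.00186). The genes most like it over the 9 livers were Bbs10, B3gnt3 and Ctdp1 (Pearson r of 0.984, 0.982 and 0.977, again the highest of all genes and no test).

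**Figure D3:**
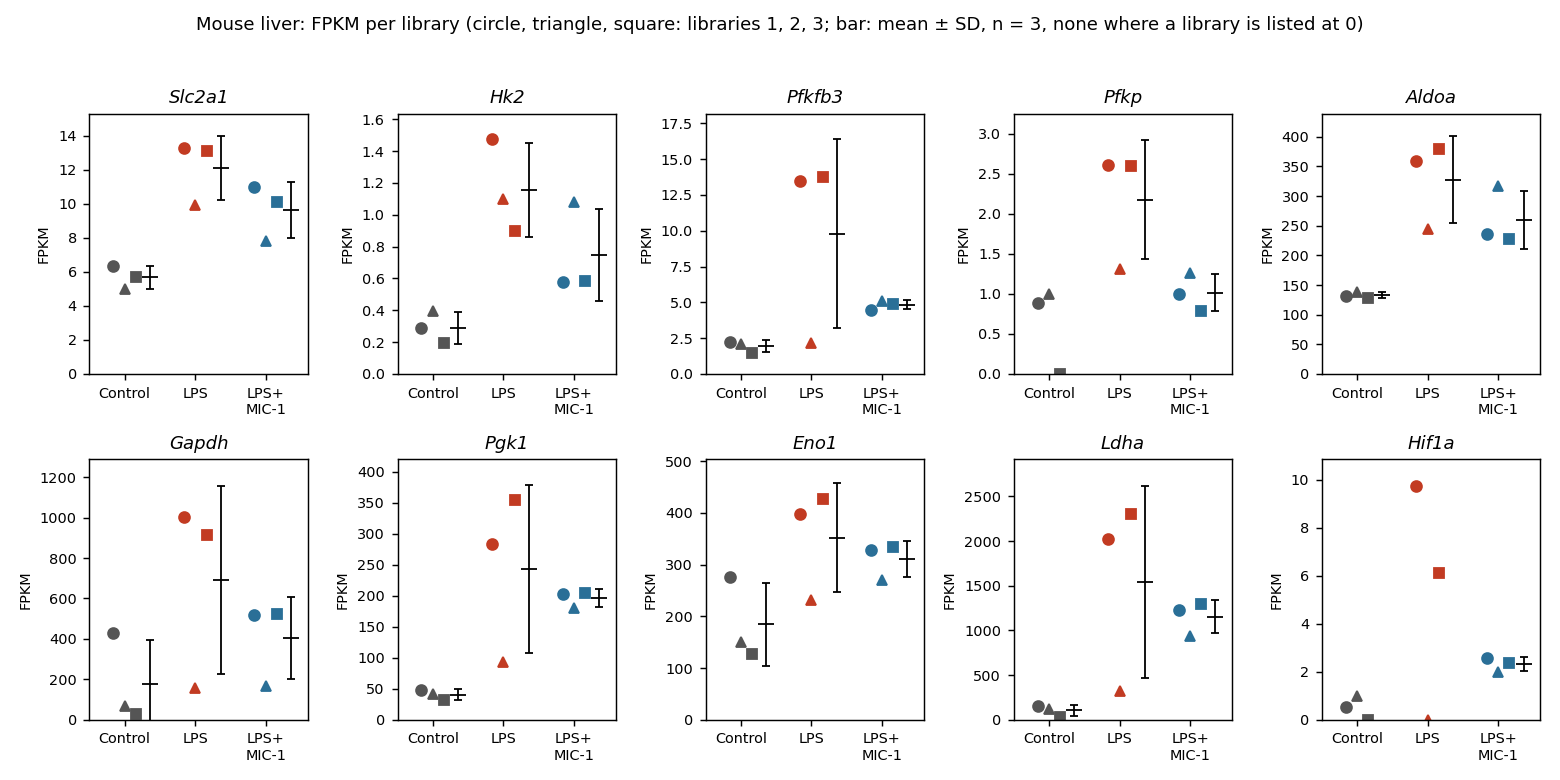
FPKM (linear axis from 0) of the 10 genes in the 9 liver libraries by group, with library 1 as a circle, 2 as a triangle and 3 as a square, and mean ± SD (n = 3) in black where no library is listed at 0. The LPS triangle lies under the 2 other LPS points in every panel but Hk2, as for Ldha at 317 FPKM against 2020.4 and 2302, and the LPS+MIC-1 points sit between controls and the 2 high LPS points for Pfkfb3, Pgk1 and Ldha.

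Liver LPS library 2 was far above the controls in Saa3 and Lcn2, a pair of acute-phase genes. Saa3 was at 38664 FPKM in it, against 24438 and 38037 in LPS libraries 1 and 3 and 52.9 to 4075 in controls, and Lcn2 at 18268, against 22434 and 29552, and 35.5 to 2037 in controls. Fgb, the fibrinogen beta chain, was at 5067 FPKM in it, against 13195 and 13011 in the other 2 and 556 to 1825 in controls. Its summed FPKM of the 9 genes other than Hif1a was 1057, against 4092.5 and 4408 in the other 2 and 358 to 1055 in controls. In all, 0 of 9 genes were called between LPS+MIC-1 and LPS, beside 0.0% of all genes tested. With array weights 3 were (6.22%), and without library 2 of both groups 1 was (2.99%). Between LPS+MIC-1 and control 2 of 9 were called (Pgk1 and Ldha, both higher), beside 25.2% of all genes called and 13.8% called higher, and 7 of all 10 genes had every LPS+MIC-1 liver above every control, where 54.6% of all genes tested had groups apart in either direction and 30.5% had them apart upwards.

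**Figure D4:**
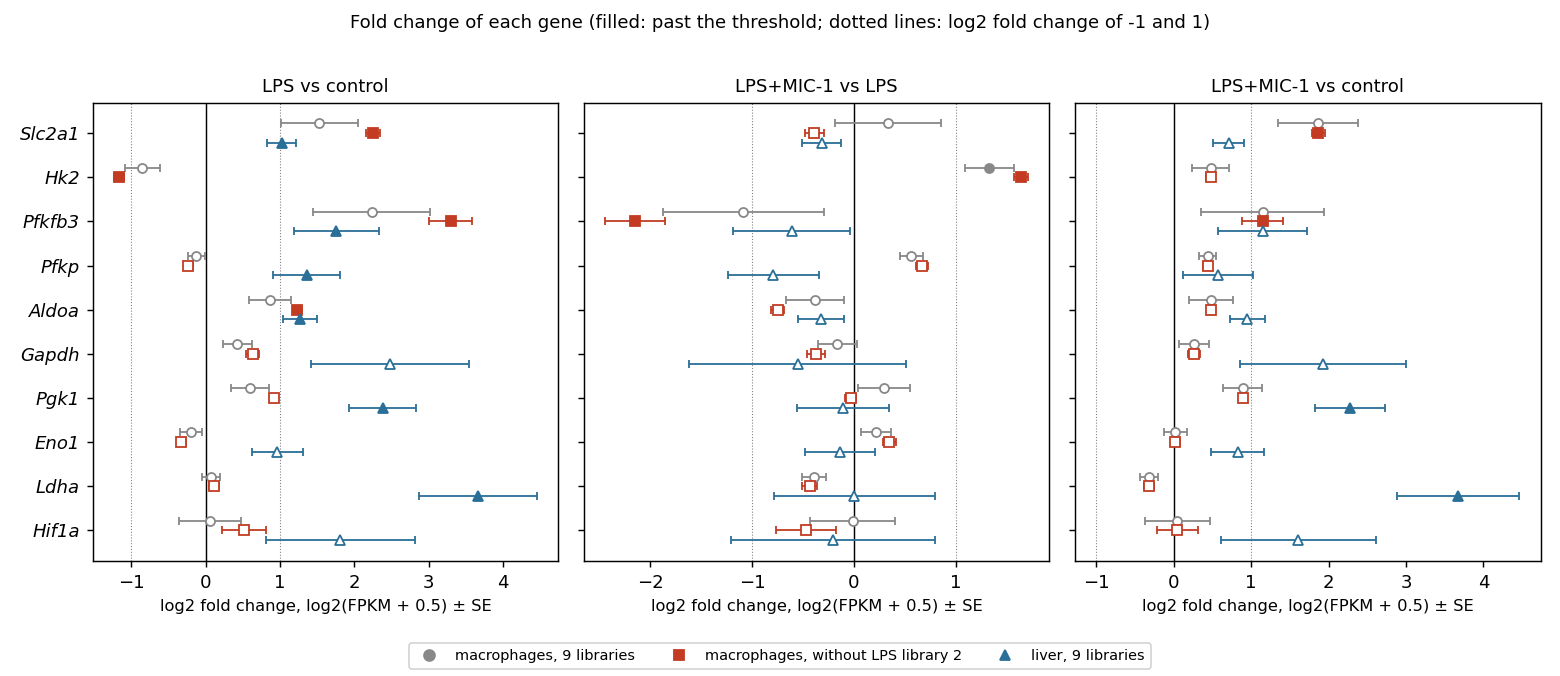
Log2FC ± SE (limma) of the 10 genes for the 3 comparisons, with macrophages over 9 libraries (grey circles), macrophages without LPS library 2 (red squares) and liver (blue triangles). Filled symbols passed the threshold, and dotted lines mark a Log2FC of -1 and 1. Slc2a1, Pfkfb3 and Aldoa are filled on the right in both tissues between LPS and control, Hk2 is filled on opposite sides of 0 in macrophages between the left and middle panels, and Pgk1 and Ldha are filled in liver alone. Hk2 has no liver symbol because it was under the test's minimum there.

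The ubiquitous transporter Slc2a1 held more of its family in treated livers than in control livers. Slc2a1 made up 5.97% to 10.3% of the transporter genes in control livers and 43.8% to 68.3% with LPS, and Slc2a2 went from 89.0% to 93.2% down to 11.5% to 43.1%. With LPS+MIC-1 Slc2a1 stayed at 60.3% to 65.0%. Pfkfb3 made up 3.22% to 6.26% of the Pfkfb genes in controls, 27.9%, 3.72% and 26.1% after LPS, and 7.65%, 11% and 7.86% after LPS+MIC-1, where Pfkfb1, the liver form, held 65.2% to 72.3%. For Slc2a1 no LPS library overlapped the controls.

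**Figure D5:**
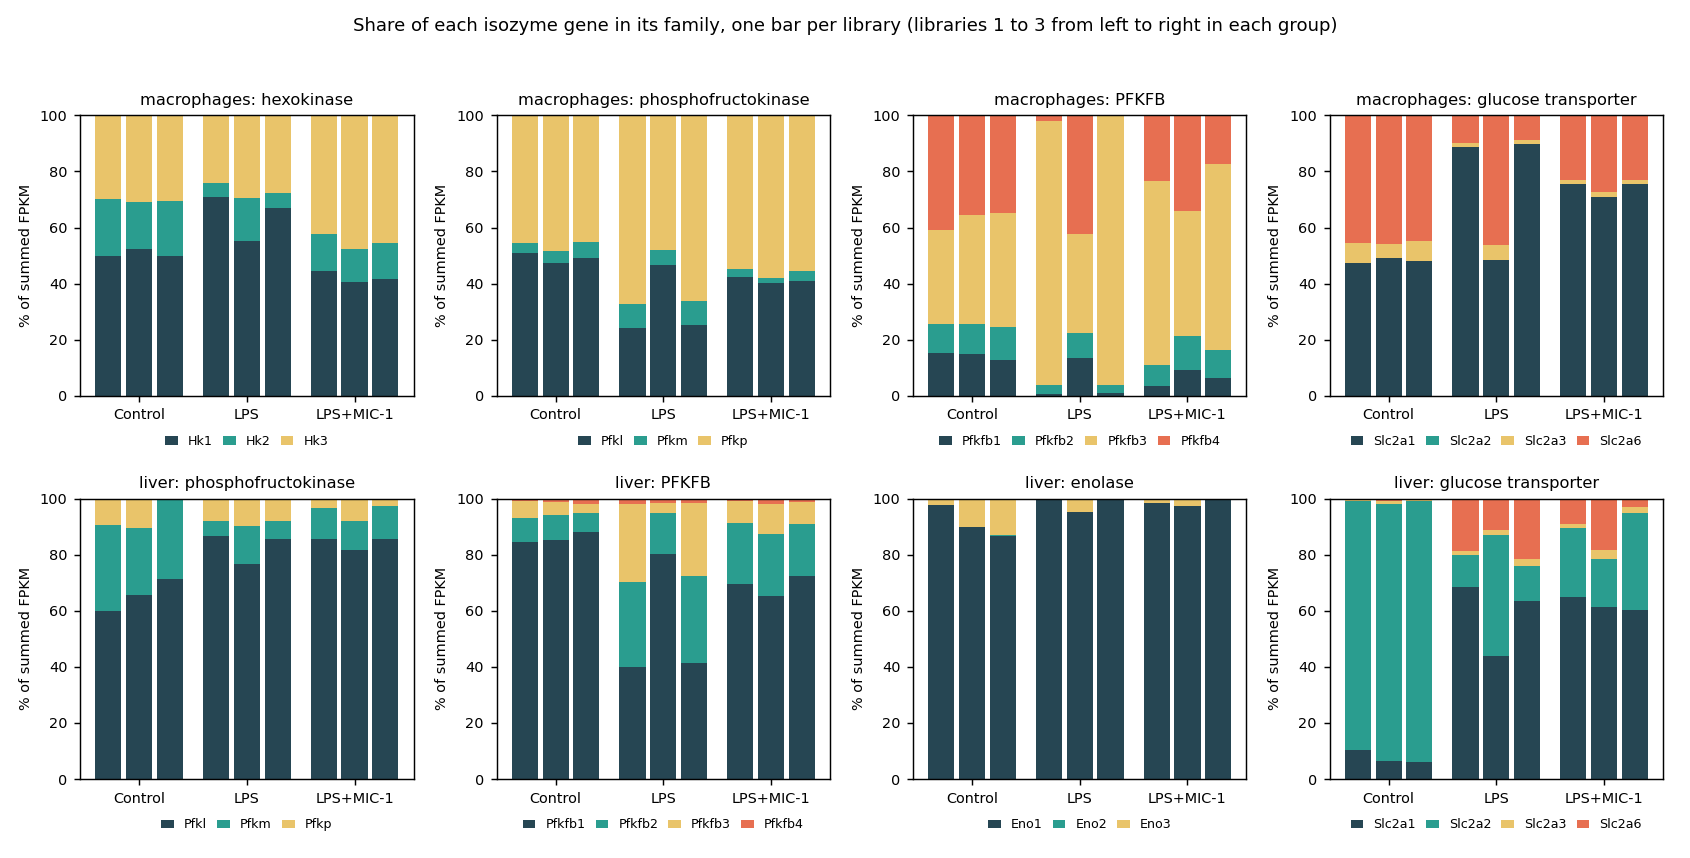
Percent of the summed FPKM of an isozyme family taken by each gene, 1 bar per library in the order of libraries 1 to 3 within a group, for 4 families in macrophages (top) and 4 in liver (bottom). Pfkfb3 fills 94.1% and 96.1% of its family in macrophage LPS libraries 1 and 3, and Slc2a2 gives way to Slc2a1 in every treated liver.

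Marker levels of other cell types also differed between the livers. Neutrophil markers (9 genes) summed to 37.6 to 53.1 FPKM in controls, 354 to 449 with LPS and 192 to 462 with LPS+MIC-1, most of it S100a8 in the treated livers, while the receptor gene Cxcr2 stood at means of 35.1, 7.05 and 5.23. Macrophage markers (11 genes) summed to 60.7 to 92.5, 180.2 to 661 and 212 to 487, and its members stood in different directions. The LPS-inducible Cd14 was at 3.49 to 10.8 FPKM in controls, 569, 84.2 and 552 after LPS, and 56.7, 407 and 61.4 after LPS+MIC-1, and Marco was higher in every treated liver than in the controls too. The Kupffer cell marker Clec4f stood at means of 24.3, 5.16 and 4.53 FPKM, Vsig4 at 4.804, 1.35 and 1.15 and Mertk at 6.91, 2.78 and 2.90, while Csf1r had means of 5.88, 6.67 and 6.31 and Fcgr1 of 2.64, 3.30 and 2.96. The defining markers Emr1 and Ptprc were listed at 0 in 5 and 6 of the 9 livers. Hepatocyte markers summed to 43030 to 83540 in controls and 43340 to 60410 in the other groups. The part of these shifts in the liver results was not tested.

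The rest of the path was read from a list of 46 further genes of glucose transport, glycolysis and pyruvate use, chosen with earlier results of these data known. In macrophages, without LPS library 2, 12 of the 27 tested were called with LPS, 3 higher and 9 lower, beside 34.2% of all genes, with a median Log2FC of -0.53 (0 of 27 over 9 libraries). Eno2, the neuronal enolase, moved most, from 2.45, 4.05 and 2.43 FPKM in controls to 130.3, 4.44 and 119.8 after LPS and 20.4, 6.07 and 16.1 after LPS+MIC-1. Its Log2FC was 5.21 with LPS (limma adjusted p = 2.58e-05) and -3.25 between LPS+MIC-1 and LPS (limma adjusted p = 0.000438), and 3.65 and -1.70 over 9 libraries, not called. Pfkfb4 (-2.61), Pdk1 (-2.11), a kinase that closes pyruvate dehydrogenase, and Pfkl (-1.73) were called lower with LPS, and over 9 libraries they were at -1.62, -1.43 and -1.17, not called.

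Of the 27, 10 were called between LPS+MIC-1 and LPS without LPS library 2 (7 higher, 3 lower) and 2 of 27 over 9 libraries, beside 23.3% and 3.87% of all genes. Pfkfb4 (2.59) and Slc16a3 (1.67), the lactate exporter MCT4, were higher, and the transporter Slc2a8 (-1.97) was lower, beside 1.59, 1.23 and -1.39 over 9 libraries, not called. Against control, 4 of 27 were called without LPS library 2, beside 15.7% of all genes: Eno2 (1.95) and Hk3 (1.63) higher, Eno3 (-1.51) and the lactate carrier Slc16a1 (-1.22) lower. Hk3 was called over 9 libraries too (limma adjusted p = 0.000519).

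In liver 13 of 31 tested genes of that list were called with LPS (10 higher, 3 lower), 0 between LPS+MIC-1 and LPS, and 12 with LPS+MIC-1 against control (9 higher, 3 lower), beside 24.6%, 0.0% and 25.2% of all genes. Slc2a2 fell by 3.999 on the log2 scale with LPS (SE 0.52, limma adjusted p = 0.00203) and by 4.05 with LPS+MIC-1 against control. It was at 54.9, 71.2 and 88.7 FPKM in controls, 2.24, 9.79 and 2.58 after LPS, and 4.16, 2.19 and 5.78 after LPS+MIC-1. Higher with LPS were Pkm2 (2.77), the muscle-type pyruvate kinase, Fbp1 (2.71), a gluconeogenic enzyme that runs against phosphofructokinase, and Slc16a3 (2.62). With LPS+MIC-1 against control Fbp1 (3.11), the triose isomerase Tpi1 (2.38) and Pkm2 (2.20) were called. Between LPS+MIC-1 and LPS the smallest p-values were those of Slc2a6 (-1.14) and Slc16a3 (-0.94), both with a limma adjusted p of 0.997.

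Of 12 further genes of the HIF system 8 were tested in macrophages and 10 in liver. In macrophages without LPS library 2, Arnt, the partner subunit of HIF-1α, was called higher with LPS (2.06) and lower between LPS+MIC-1 and LPS (-1.44). Vhl, which marks HIF-1α for decay, was called the same way (1.67 and -1.34), and Cited2, a competitor for the coactivator p300, the opposite way (-1.92 and 2.08). Over 9 libraries none of the 3 was called in either comparison. None of the 8 was called between LPS+MIC-1 and control in macrophages, beside 15.7% of all genes without LPS library 2. The smallest p-values there were those of Arnt (0.62) and Siah2 (0.55). In liver Vhl (1.28) and Epas1 (1.18), which encodes HIF-2α, were called higher with LPS and with LPS+MIC-1 against control (1.21 and 1.38). They were the only ones of the 10 called there, beside 24.6% and 25.2% of all genes. Between LPS+MIC-1 and LPS none was called, beside 0.0% of all genes. The smallest p-values there were those of Siah1a (-0.22) and Arnt (-0.18), both with a limma adjusted p of 0.997.

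A list of 25 known HIF targets outside glycolysis had 22 genes tested in macrophages and 18 in liver. This list too was chosen with earlier results of these data known, so its counts are a description and no test of the targets as a set. Without LPS library 2, 15 of 22 were called with LPS (13 higher, 2 lower), beside 34.2% of all genes, at a median Log2FC of 1.45 (0 of 22 over 9 libraries). Nos2 (4.801), Bhlhe40 (3.75) and Vegfa (3.27) were among those called higher. Nos2 and Vegfa are also known to be induced by LPS through other factors. Against LPS, LPS+MIC-1 had 4 higher and 5 lower of 22, beside 23.3% of all genes, among them Edn1 (2.598), Stc2 (2.56) and Bhlhe40 (-2.26), of which Edn1 and Stc2 were called over 9 libraries too (2.92 and 2.29). Edn1 passed the test's minimum only through the LPS+MIC-1 group, at mean FPKM of 0.252 in controls, 0.954 with LPS and 10.6 with LPS+MIC-1. Its calls against LPS and against control carry that limit, and the counts include it. Against control, 14 of 22 were called without LPS library 2 and 5 over 9 libraries, beside 15.7% and 5.59% of all genes. All were higher (7.55% of all genes were called higher without LPS library 2), among them Nos2 (3.96), Edn1 (3.84), 2310016C08Rik (3.67), now named Hilpda, and Ddit4 (2.74), with Edn1 and 2310016C08Rik called over 9 libraries.

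In liver 9 of 18 of those targets were called with LPS (8 higher, 1 lower) and 7 with LPS+MIC-1 against control (6 higher, 1 lower), beside 24.6% and 25.2% of all genes, at median Log2FC values of 1.27 and 0.98. The lipid droplet coat Plin2 (3.36 and 2.65), the heme oxygenase Hmox1 (2.54 and 2.45) and Ddit4 (2.52 and 2.88) were called in both comparisons. None of the 18 (0) was called between LPS+MIC-1 and LPS, with Ankrd37 (-0.65) and Plin2 (-0.70) at the smallest p-values.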

How the data were processed

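RNA-seq libraries of RAW264.7 cells and mouse liver (3 per group, 3 groups per table, 18 in all) were analysed from 2 deposited tables. Per the labels and the methods, the authors pseudoaligned reads to an mm9 RefSeq transcriptome with kallisto 0.45.0, summed them per gene, and deposited FPKM values from DESeq2 1.20.0, scaled by size factors within each table, so levels and tests were kept within a table. Use of strand is not stated. A further 6 tables hold the authors' own comparisons (fold changes and p-values) and were not used. No column was left unmatched (0), but columns carry no replicate number, and library numbers give the order in the table.

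limma 3.58.1 (R 4.3.3, lmFit and eBayes with trend) was fitted to log2(FPKM + 0.5) of genes with mean FPKM above 1, with the 3 groups in 1 fit and Benjamini-Hochberg adjustment over all genes tested. Tests were checked on simulated data: with a Log2FC of 2 in 200 genes, 64.5% were called over 9 macrophage libraries, 92.5% over 8, and 68.5% in liver. The simulated spread was drawn separately for each gene and library, and every LPS library was shifted alike. A library that lies with the controls across all genes, as macrophage LPS library 2 does, was not simulated. The 64.5% therefore does not measure how well LPS changes can be called over the 9 deposited macrophage libraries. Depth was estimated from the steps of low values, and 75.5% (macrophages) and 67.7% (liver) of the low genes fell on whole reads within 0.1 of a read, too few for a count test. The members and gene lists were chosen with earlier results of these data known. Named beside the 10 genes were, per list and comparison, up to 4 called genes with the largest Log2FC (in macrophages without LPS library 2), or the 2 smallest p-values where none was called, and isozymes. Alternatives were pseudocounts of 0.1 and 1, no filter, equal FPKM sums, median of ratios, each library left out, 2 groups per fit, array weights, libraries 1 and 3 averaged, no minimum fold and an unadjusted p. Some genes of the lists are counted there but not reported here by name.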

Additional observations from a re-analysis of the deposited data

Results flagged for a closer look

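Of 30 pairs of a gene and a comparison, 3 had all libraries of 1 group above the other in liver and below it in macrophages, or the reverse. Groups that did not overlap were common: for LPS+MIC-1 against control, 66.4% of all genes tested in macrophages and 54.6% in liver had them. The share of opposite pairs over all genes was not counted, so the 3 pairs are a description only. The 2 tables were scaled separately, so the difference between tissues was not tested. Hk2 was higher with LPS in every liver (difference of mean log2 values 1.059) and lower with LPS in every macrophage library (-0.854). In liver the gene was under the test's minimum. Pfkp was lower with LPS+MIC-1 than with LPS in every liver (-0.789) and higher in every macrophage library (0.565), on liver values of at most 2.62 FPKM. Ldha was higher with LPS+MIC-1 than in controls in every liver (3.671) and lower in every macrophage library (-0.320).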

How the results depend on the processing

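No paired analysis was possible because the columns of both tables carry a treatment and no replicate number. Counts below are genes called in the comparisons LPS against control, LPS+MIC-1 against LPS and LPS+MIC-1 against control, in that order unless named, and values of single genes are Log2FC. Shares of all genes called are given for some of these settings only. A count without such a share shows how a list moved with the setting, not how it differs from all genes. Over all settings, the values of the named genes kept direction and side of the threshold in 1962 cases, passed it in 389, missed it in 77 and changed sign in 68. Leaving out 1 library (in macrophages also beside LPS library 2) gave 0 to 4, 0 to 2 and 0 to 2 of the 10 genes in macrophages and 3 to 9, 0 to 1 and 2 to 4 in liver, with the higher macrophage counts without LPS library 2. For the other glycolysis genes these ranges were 0 to 12, 1 to 11 and 1 to 4 in macrophages, and at lowest 0 in liver for LPS+MIC-1 against LPS. For the other HIF targets they were 0 to 16, 0 to 9 and 1 to 14 in macrophages, 3 to 13 in liver for LPS against control, at lowest 0 for LPS+MIC-1 against LPS and 3 for LPS+MIC-1 against control. Between LPS+MIC-1 and LPS the Log2FC in macrophages ranged from -0.82 to 0.39 for Hif1a, -0.057 to 0.48 for Pgk1 and -0.44 to 0.71 for Slc2a1, and in liver from -0.41 to 0.028 for Eno1, -1.55 to 0.62 for Hif1a, -0.92 to 0.51 for Ldha and -0.69 to 0.27 for Pgk1. Against control in macrophages Hif1a ranged from -0.34 to 0.87 with LPS and from -0.14 to 0.25 with LPS+MIC-1, and Eno1 with LPS+MIC-1 from -0.005 to 0.053. The remaining settings concern scaling, weights and thresholds. Array weights gave 4, 2 and 2 of the 10 genes, 11, 10 and 4 other glycolysis genes and 16, 6 and 14 other HIF targets in macrophages, with Pgk1 at -0.042 and Slc2a1 at -0.30 against LPS and Eno1 at -0.032 against control. In liver they gave 3 of the 10 genes, 5 other glycolysis genes and 4 HIF targets for LPS+MIC-1 against LPS, 6 of the 10 genes against control, and -0.72 for Ldha against LPS. With libraries 1 and 3 of each macrophage group averaged, LPS+MIC-1 against LPS gave 0 genes in all 3 lists and LPS+MIC-1 against control 0 in both other lists, with Hif1a at -0.059 with LPS and 0.10 against LPS. Without a filter, LPS+MIC-1 against LPS in macrophages gave 0 of the 10 genes and 1 other glycolysis gene. With only 2 groups per fit it gave 0 in all 3 lists, while LPS+MIC-1 against control gave 1 of the 10 genes, 4 other glycolysis genes and 14 HIF targets in macrophages and 4 of the 10 genes in liver. With no minimum fold, LPS+MIC-1 against control gave 2 other glycolysis genes in macrophages and 4 of the 10 genes in liver. An unadjusted p gave 2 of the 10 genes with LPS and 1 with LPS+MIC-1 against control, 5, 6 and 3 other glycolysis genes and 12, 5 and 12 HIF targets in macrophages, and 1 other glycolysis gene in liver for LPS+MIC-1 against LPS. A pseudocount of 0.1 turned Hif1a in liver to 0.39 between LPS+MIC-1 and LPS. At equal FPKM sums over 9 macrophage libraries, LPS+MIC-1 against LPS gave 0 of the 10 genes and 1 other glycolysis gene. Between LPS and control, Gapdh was at -0.26, Hif1a at -0.60, Ldha at -0.61 and Pgk1 at -0.091. Between LPS+MIC-1 and LPS, Aldoa was at 0.11, Gapdh at 0.34, Hif1a at 0.47 and Ldha at 0.10, and against control Eno1 was at -0.17 and Hif1a at -0.13. In liver, equal sums gave 2 of the 10 genes with LPS, 4 HIF targets with LPS+MIC-1 against control, and -0.28 for Ldha against LPS. The following settings were chosen after seeing the data. Without library 2 of both treated liver groups, LPS+MIC-1 against LPS gave 4 other glycolysis genes and 1 HIF target, and LPS+MIC-1 against control 9 HIF targets. Without macrophage LPS library 2, median-of-ratios scaling gave 4, 2 and 2 of the 10 genes, 12, 10 and 4 other glycolysis genes and 15, 9 and 14 HIF targets, with Pgk1 at -0.031 and Slc2a1 at -0.39 against LPS. With no minimum fold there were 8, 8 and 7, then 22, 18 and 12, then 17, 10 and 16, where 64.0% of all genes were called between LPS and control. At equal sums there were 5, 4 and 1, then 16, 13 and 5, then 15, 10 and 14, where 51.1% of all genes were called between LPS and control. With LPS, Gapdh was then at -0.36, Hif1a at -0.43, Ldha at -0.88 and Pgk1 at -0.070. Against LPS, Aldoa was at 0.056, Gapdh at 0.43, Hif1a at 0.30 and Ldha at 0.37, and against control Eno1 was at -0.17 and Hif1a at -0.13. The cause of these shifts was not tested. Depth limits the liver controls most, where Hk2 and Hif1a rested on at most 24.9 estimated reads per library.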

Other observations

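In macrophages without LPS library 2 Pfkfb3 and Pfkfb4, which both encode enzymes that make fructose-2,6-bisphosphate, stood in opposite directions, with Pfkfb3 at a Log2FC of 3.30 and Pfkfb4 at -2.61 between LPS and control and -2.15 and 2.59 between LPS+MIC-1 and LPS. Between LPS and control Pfkfb1 was lower too (-1.23, called) and Pfkfb2 was at 0.15, not called. Of the hexokinases, Hk1 was at 44.0 to 54.5 FPKM in controls and 99.9 and 94.4 in LPS libraries 1 and 3, while Hk2 was lower there. Liver Gapdh, used as a reference gene in the study's PCR work, spanned 15.6-fold among the 3 control libraries. The other members with no control library at 0 spanned 1.08-fold (Aldoa) to 4.36-fold (Ldha) in the same livers. These libraries had unequal estimated depths of 11.2, 4.99 and 4.90 M reads, and the cause of the span was not tested.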
